A study of Arabidopsis thaliana with 8 samples.

Results

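RNase R digestion was compared with no digestion in RNA of the debranching mutant dbr1-2 of Arabidopsis thaliana. Loci of the deposited gene table were taken where 2 or more of the 4 dbr1-2 libraries reached 1 FPKM, which gave 13743 of 32232 loci. FPKM are counts of sequenced fragments scaled by transcript length and by the number of mapped fragments. The second highest of the 4 values was 1.00006 FPKM in the locus just inside that limit and 0.99981 FPKM in the locus just outside it. Of the 13743 loci, 8017 reached 1 FPKM in both libraries of both groups, 574 in both digested libraries and neither undigested one, and 3651 in both undigested libraries and neither digested one, the rest doing so in other combinations.

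The libraries came from total RNA of inflorescences of plants grown at 22 °C under 16 h of light and 8 h of dark, in the Columbia background. dbr1-2 with RNase R was the mutant's RNA depleted of ribosomal RNA and treated with RNase R at 37 °C for 2 h, and dbr1-2 without RNase R was the mutant's depleted RNA left undigested. Col-0 with RNase R and Col-0 without RNase R were the matching wild-type RNAs. Each group had 2 libraries, made with a stranded kit. dbr1-2 is known as a viable allele with partial loss of DBR1 function, so the mutant is not a null. The labels do not say whether replicates came from separate plants or extractions, so the p-values measure the spread between libraries, which may be technical. By the sequencing tags, dbr1-2 with RNase R replicate 1 had only ribosomal RNA removed, while every other library also had mRNA removed. The tags of both digested dbr1-2 libraries and of undigested replicate 1 carry the same year, and that of undigested replicate 2 carries the next. In Col-0 both digested libraries and undigested replicate 2 carry the later year and undigested replicate 1 the earlier, so among the digested libraries year and genotype cannot be told apart.

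When the spliceosome removes an intron it leaves a lariat, in which the intron's 5′ end is joined to an internal branchpoint adenosine by a 2′-5′ bond. The debranching enzyme DBR1 cuts that bond and opens the lariat, which is then degraded, so lariats last longer when DBR1 is impaired. RNase R is a bacterial 3′-to-5′ exonuclease that degrades linear RNA, stops at the branch of a lariat, spares circles, and works poorly on RNAs whose 3′ end lies in a stable structure.

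The RNAs below stood at the ends of the range of change among small nuclear loci, or, for AT1G15405, took a large share of the FPKM in digested libraries. Sequences are from RefSeq, build TAIR10.1, in which the nuclear chromosomes are those of TAIR10. U1.5 (AT1G08115, chr1:2538074-2538238, minus strand) encodes a U1 small nuclear RNA (snRNA), whose 5′ end pairs with 5′ splice sites, and its capitals mark that stretch (ACTTACCT) and the Sm protein site (ATTTNTGG). U4.2 (AT3G06900, chr3:2178191-2178343, minus strand) encodes a U4 snRNA, with the Sm site in capitals. SNOR111 (AT1G12013, chr1:4058287-4058416, plus strand) encodes a small nucleolar RNA (snoRNA), and its capitals mark the first TGATGA and the last CTGA, the letters of boxes C and D. AT1G15405 (chr1:5297875-5298166, minus strand) is annotated as a non-coding RNA. Its capitals mark the 235 bases identical, over 289 aligned columns (81.3%), to the complement of the annotated strand of AT4G02970, in its last 300 bases. AT4G02970 is the 7SL RNA gene AT7SL-1, and which of its strands carries the 7SL RNA was not tested.
U1.5: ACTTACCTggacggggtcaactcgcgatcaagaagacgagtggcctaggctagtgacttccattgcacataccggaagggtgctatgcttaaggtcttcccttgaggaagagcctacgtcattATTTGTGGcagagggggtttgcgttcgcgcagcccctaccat
U4.2: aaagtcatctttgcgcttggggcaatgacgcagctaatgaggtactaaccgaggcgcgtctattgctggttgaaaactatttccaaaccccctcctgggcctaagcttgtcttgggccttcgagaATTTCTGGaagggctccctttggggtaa
SNOR111: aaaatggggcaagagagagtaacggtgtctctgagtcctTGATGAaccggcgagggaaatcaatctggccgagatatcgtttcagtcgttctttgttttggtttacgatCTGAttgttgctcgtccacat
AT1G15405: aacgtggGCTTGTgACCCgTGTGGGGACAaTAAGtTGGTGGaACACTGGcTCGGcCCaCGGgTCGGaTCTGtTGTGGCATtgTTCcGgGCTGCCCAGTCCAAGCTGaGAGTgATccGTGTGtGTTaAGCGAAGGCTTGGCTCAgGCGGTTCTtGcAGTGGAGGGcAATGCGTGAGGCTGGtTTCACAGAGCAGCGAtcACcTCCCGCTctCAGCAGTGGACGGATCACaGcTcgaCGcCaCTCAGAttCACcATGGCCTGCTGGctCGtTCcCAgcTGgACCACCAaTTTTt
Searched on the gene's strand only, ACTTACCT lay in the first 20 bases of 4 of 13 annotated U1 genes (30.8%) and of 4 of 82 snRNA genes of any kind (4.88%). ATTTNTGG was found in 19 of those 82 (23.2%). TGATGA and CTGA both occurred in 139 of 287 snoRNA genes (48.4%).

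The summed FPKM of the digested libraries were dominated by a few loci. FPKM summed to 4003096 and 3644783 with RNase R, against 384482 and 318314 without it. Nuclear protein-coding genes held 3.87% and 4.66% of that sum with RNase R, against 27.4% and 32.2% without. U1.5 alone held 41.6% and 32.5%, against 19.0% and 11.99%. The chloroplast locus ATCG00220 held 29.5% and 29.7%, against 19.7% and 12.9%. By the steps between low values, 1 read on a transcript of 1 kb was worth 0.0805 and 0.0784 FPKM in the digested libraries, against 0.0133 and 0.0134 in the undigested ones, so a given FPKM rests on fewer reads after digestion. Values came out as whole reads within 0.05 of a read for 72.2% to 95.6% of the loci used. These steps fitted a transcript length reduced by 201 nt, which exceeds the length of U1.5 and U4.2. FPKM of such short RNAs can therefore be compared between libraries and not with the levels of longer RNAs. The shares given above are thus shares of FPKM and do not give shares of reads. The replicates ranked the 13743 loci alike, with Spearman coefficients across loci of 0.950 with RNase R and 0.987 without. All 7 floral organ genes checked, AP1 among them, were at 1.28 to 21.3 FPKM in the dbr1-2 libraries. The anther and pollen genes AMS, MS2 and VGD1 were at 0.850 to 7.46 FPKM, and AGP6 and AGP11 at 0 to 0.810 FPKM. The seed storage genes CRA1, CRU3 and SESA1 and the root gene CASP1 were at 0 or below 0.1 FPKM. Of the other root genes, PYK10 and SHV2 were at 0.0494 to 0.307 FPKM and IRT1 at 0.368 to 2.07 FPKM.

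DBR1 (AT4G31770, chr4:15370061-15372942, 8 introns) is the gene named by the mutation. It had 0.265 and 0.260 FPKM in dbr1-2 with RNase R, against 0.339 and 0.430 FPKM in dbr1-2 without it. In Col-0 it had 0.202 and 0.188 FPKM with RNase R, against 0.662 and 0.694 FPKM without. Its level in undigested dbr1-2 thus lay below both undigested wild-type libraries. It did not reach 1 FPKM and was not among the 13743 loci. With no filter on level its RNase R change in dbr1-2 was -0.13 on the log2(FPKM + 1) scale (SE 0.04, limma's adjusted p = 0.0422).

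Changes were tested with limma on log2(FPKM + 1) in 1 fit of all 8 libraries, with two-sided p-values adjusted by Benjamini-Hochberg over the 13743 loci and a threshold of 0.05. Fold changes are digested over undigested on that scale, which understates changes of weakly expressed loci. In dbr1-2, 2136 loci (15.5%) were higher with RNase R and 9570 (69.6%) were lower, together 85.2% of those tested. The median log2 fold change was -0.71, and the central range from the 5th to the 95th percentile was -1.98 to 1.496. Loci that pass the limit only through the group where they are high had to differ, and of the 8017 loci at 1 FPKM or more in all 4 libraries 1463 were higher and 4861 lower.

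The direction of many smaller changes depended on how the libraries were scaled, since FPKM are shares of each library. After scaling by median ratios, 4225 loci (30.7%) were higher and 4709 (34.3%) lower, with a median of -0.08. Quantile normalization gave 3740 higher and 5146 lower, and equal sums over protein-coding genes gave 1350 higher and 11189 lower. Under the deposited FPKM and all 3 rescalings alike, 1337 loci were higher and 4137 lower. Of the loci lower in the deposited values, 514 were higher after median-ratio scaling, and 0 went the other way. Each fold change below is best read against the median of -0.71.

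By annotation class, the changes ran from strong rises of snRNA loci to falls of most protein-coding genes. All 5 tested snRNA loci were higher, with a median log2 fold change of 3.63. Of 307 loci that lie on the strand opposite to the gene they are named after, 296 were higher and 8 lower, with a median of 2.94. Chloroplast loci were split, with 38 of 65 higher and 20 lower. Of 12710 protein-coding genes on their own strand, 1609 were higher and 9202 lower, with a median of -0.74. Over all loci the shares were 15.5% higher and 69.6% lower. Among smaller classes, 28 of 79 pseudogenes were higher (35.4%) and 32 lower (40.5%). Of 117 other non-coding loci 35 were higher (29.9%) and 60 lower (51.3%), and 6 of 9 snoRNA loci were lower and 1 higher. Of the pseudogenes 21 reached 1 FPKM only in the digested libraries and 14 only in the undigested ones. For the other non-coding loci these counts were 18 and 35, so many of these directions were fixed by the filter on level. After median-ratio scaling 42 of the pseudogenes were higher and 13 lower, and 49 of the other non-coding loci were higher and 34 lower.

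**Figure D1:**
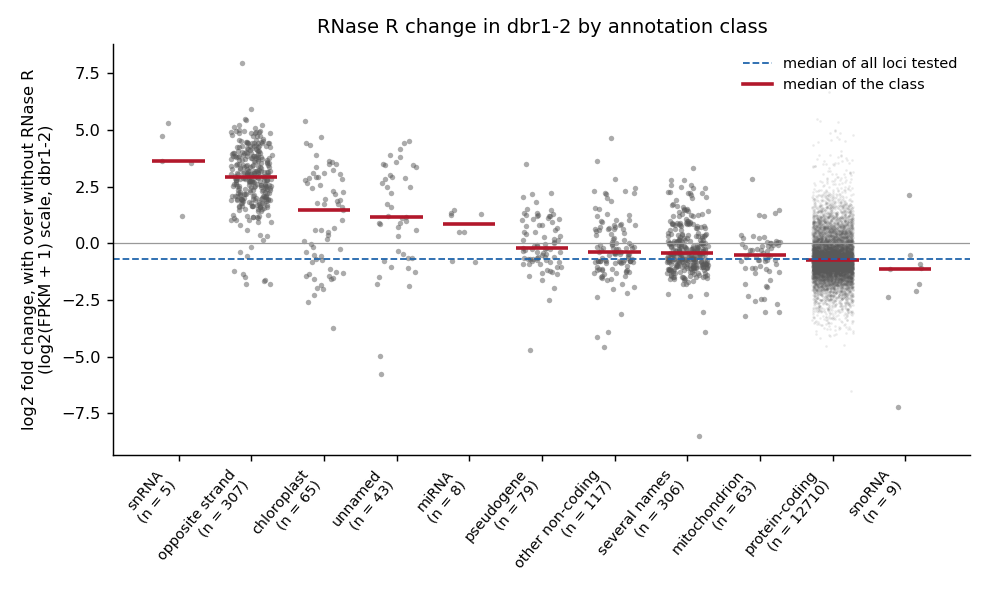
Log2 fold change with over without RNase R in dbr1-2 (log2(FPKM + 1) scale) of tested loci, by annotation class along the x axis. Loci of ribosomal and transfer RNA and loci whose name is not in the annotation are not drawn. Points are loci, short bars class medians and the dashed line the median of all 13743 loci (-0.71). snRNA (median 3.63) and opposite-strand loci (2.94) lie above the dashed line, and protein-coding genes (-0.74) centre on it.

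Spliceosomal snRNAs showed some of the largest rises. U1.5 had 1664320 and 1184010 FPKM with RNase R, against 73178 and 38171 FPKM without, a log2 fold change of 4.73 (SE 0.50, limma's adjusted p = 5.11e-05). Its call was lost with no filter on level (adjusted p = 0.813) and under quantile normalization (adjusted p = 0.557, log2 fold change 0.22). U4.2, whose RNA pairs with U6 before the spliceosome is activated, had 3069 and 2208 FPKM with RNase R, against 104 and 39.7 FPKM without (log2 fold change 5.32, SE 0.54, limma's adjusted p = 3.96e-05), in an interval it shares with another locus. In both genes every digested library lay above both undigested ones, and for neither did the difference from the change in Col-0 pass the test (limma's adjusted p of the difference 0.797 for U1.5 and 0.536 for U4.2).

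The 3 U2 loci among the 5 were named after their values were seen. U2 snRNA pairs with the branchpoint. U2.3 (AT3G57765) had 333 and 118 FPKM with RNase R, against 11.7 and 19.5 FPKM without. U2.6 (AT3G56705) had 148 and 46.3 FPKM with RNase R, against 10.4 and 3.45 FPKM without. U2.2 (AT3G57645) had 5.65 and 1.99 FPKM with RNase R, against 1.46 and 0.507 FPKM without. Replicate 1 was the higher of the digested libraries in all 3. The ribosomal RNA locus AT3G41768 (1808 nt of exon), also named after its values were seen, had 318 and 230 FPKM with RNase R, against 30.6 and 12.8 FPKM without (log2 fold change 3.70). Removal of ribosomal RNA preceded digestion in all libraries.

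Several of the largest rises named as protein-coding genes were loci whose interval holds the sequence of a structured RNA. Intervals were searched for snRNA, ribosomal RNA and 7SL sequence of at least 100 nt and 70% identity. Of 56 nuclear loci with such sequence, 29 were higher and 21 lower, with a median log2 fold change of 0.74. Of 13559 nuclear loci with none, 2062 were higher and 9492 lower, with a median of -0.72. Among protein-coding genes alone, 18 of 44 with such sequence were higher and 21 lower, with a median of -0.31. Of the 12666 protein-coding genes with none, 1591 were higher and 9181 lower, with a median of -0.74. Annotated snRNA and ribosomal RNA genes among the 56 loci match themselves. Of 16 protein-coding genes called higher with a log2 fold change of at least 4, 9 held such sequence. AT7SL-1 is among these 9 and supplied the 7SL sequence for the search, so its match was fixed. The search limits were chosen after the genes with the largest rises were known, and a gene-level value does not say which part of a locus its reads came from.

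AT4G23420 encodes an NAD(P)-binding Rossmann-fold protein, and its interval contains all of U1.2 (165 nt, identity 100%, chr4:12225622-12225786). It had 4038 and 3141 FPKM with RNase R, against 114 and 54.8 FPKM without, a log2 fold change of 5.48 (SE 0.44, limma's adjusted p = 1.25e-05). AT5G26990, a drought-responsive family gene with U1.9 in its interval on the opposite strand, had 862 and 601.2 FPKM with RNase R, against 23.9 and 11.7 FPKM without (log2 fold change 5.34, SE 0.44). AT1G11880, with U1.10 in its interval on the same strand, had 70.3 and 47.6 FPKM with RNase R, against 1.27 and 1.24 FPKM without (4.71, SE 0.18). All 3 genes rose with no overlap between groups, as U1.5 did. Over the 7 loci with U1 sequence, 5 were higher and 1 lower, with a median of 4.71. Of 25 loci with U2 sequence 11 were higher and 13 lower, with a median of -0.53. Of the remaining snRNA sequences, U4 had 2 of 4 loci higher and 0 lower, U5 had 1 locus, which was lower, U6 had 0 of 2 higher and 1 lower, and other snRNAs had 2 of 6 higher and 4 lower. All 3 loci with ribosomal RNA sequence were higher. The annotated genes U1.5, U2.2, U2.3, U2.6, U4.2 and AT3G41768 match themselves and are counted in these classes.

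The 7SL RNA is the RNA core of the signal recognition particle, which guides ribosomes making secreted proteins to the endoplasmic reticulum. AT7SL-1, on its annotated strand, had 658 and 821 FPKM with RNase R, against 34.7 and 35.1 FPKM without (log2 fold change 4.36, SE 0.12, limma's adjusted p = 3.40e-07). AT2G31141, an uncharacterized gene with 83.7% identity to 7SL, had 39869 and 54476 FPKM with RNase R, against 1098 and 1107 FPKM without (5.401, SE 0.18). RR3 (AT2G41310), a type-A response regulator of cytokinin signalling, had 21528 and 24269 FPKM with RNase R, against 670 and 804 FPKM without (4.96). BXL3 (AT5G09730), a beta-xylosidase acting on cell wall polysaccharides, had 2107 and 2393 FPKM with RNase R, against 71.7 and 81.9 FPKM without (4.86). The intervals of RR3 and BXL3 hold 7SL-like sequence at 73.2% and 77.2% identity. That sequence matches AT7SL-1 as annotated on the strand of BXL3 and on the opposite strand in AT2G31141 and RR3. Which strand carries the 7SL RNA was not tested. AT2G31140, which lies on the other strand of the AT2G31141 interval, was lower (-1.62). In each of these 4 loci the digested libraries lay far above the undigested ones. Of 8 loci with 7SL sequence, with AT7SL-1 itself among them, 6 were higher and 1 was lower.

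AT1G15405, printed above, had 396224 and 417623 FPKM in dbr1-2 with RNase R, against 15672 and 17172 FPKM in dbr1-2 without it. It made up 9.90% and 11.5% of all FPKM with RNase R, against 4.08% and 5.39% without. The log2 fold change of 4.63 was not called in the fit of all 8 libraries (SE 5.02, limma's adjusted p = 0.406). There, Col-0 with RNase R replicate 1 is listed at 0 and replicate 2 at 934126 FPKM. In a fit of the 4 dbr1-2 libraries alone it was called (limma's adjusted p = 2.06e-04).

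Of 9 tested snoRNA loci, whose RNAs guide modification of other RNAs, 6 were lower (66.7%, beside 69.6% of all loci). Of the 9, 5 reached 1 FPKM only in the undigested libraries and 1 only in the digested ones, so their directions were fixed by the filter on level. SNOR111 is listed at 0 in both digested dbr1-2 libraries, against 177 and 127 FPKM in the undigested ones. It is also listed at 0 in both digested Col-0 libraries. SNOR105 (AT1G29071) is listed at 0 in both, against 3.47 and 3.08 FPKM, and AT3G24614 had 0.518 and 0.731 FPKM with RNase R, against 5.55 and 3.92 FPKM without. These snoRNAs were at or near 0 in the digested libraries. AT2G35743, a pseudogene whose interval contains the snoRNA gene AT2G08760, is listed at 0 in both digested libraries, against 28.9 and 21.4 FPKM. The non-coding RNA locus AT3G55485 had 0.506 and 0 FPKM with RNase R, against 43.0 and 18.6 FPKM without (log2 fold change -4.58, limma's adjusted p = 4.29e-05). AT2G35743 and AT3G55485 reached 1 FPKM only in the undigested libraries, so the direction of both was fixed by the filter on level. AT5G13225, the exception among snoRNA loci, had 6.18 and 7.46 FPKM with RNase R, against 0.819 and 0.725 FPKM without. U3B and U3D, which act in ribosomal RNA processing, did not pass the test (log2 fold changes -1.14 and -0.92, limma's adjusted p = 0.0720 and 0.122). SNOR105, AT3G24614, AT5G13225 and the U3 loci were named after their values were seen.

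MicroRNA loci, whose transcripts fold into hairpins that are cut into microRNAs, were at low levels. Of 8 tested, 5 were higher, 2 lower and 1 not called, and the examples were chosen after their values were seen. Of the 8, 5 reached 1 FPKM only in the digested libraries, among them MIR853 (AT3G23326), the locus not called. The 2 that were lower did so only in the undigested ones, so the filter on level fixed these directions. MIR167d (AT1G31173), also called higher, had 1.61 and 1.92 FPKM with RNase R, against 1.17 and 0.769 FPKM without (log2 fold change 0.49). MIR824 (AT4G24415) had 3.36 and 3.47 FPKM with RNase R, against 0.815 and 0.836 FPKM without (log2 fold change 1.27, SE 0.12, limma's adjusted p = 2.35e-05). MIR839 (AT1G67481) had 3.96 and 2.87 FPKM with RNase R, against 0.924 and 0.812 FPKM without (1.23, SE 0.15). Both stood above the undigested libraries in every digested one. MIR159a (AT1G73687) had 0.434 and 0.309 FPKM with RNase R, against 1.41 and 1.32 FPKM without (-0.79, SE 0.10).

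Trans-acting siRNA precursors are cut after a microRNA cleaves them. TAS3 (AT3G17185), whose small RNAs target auxin response factor genes, had 44.4 and 40.05 FPKM with RNase R, against 8.86 and 6.77 FPKM without (log2 fold change 2.30, SE 0.14, limma's adjusted p = 4.00e-06). TAS2 (AT2G39681) was also higher, with 6.06 and 5.71 FPKM against 3.08 and 2.56 FPKM without (0.86, SE 0.12). TAS1C (AT2G39675) was lower, with 0.913 and 0.592 FPKM with RNase R, against 3.12 and 2.53 FPKM without (-1.13, SE 0.15). It reached 1 FPKM only in the undigested libraries, so its direction was fixed by the filter on level. Of 6 tested loci in the list of TAS, IPS and 7SL RNAs, 4 were higher (66.7%, beside 15.5% of all loci) and 2 lower (33.3%, beside 69.6%). Their median was 0.83.

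Nearly all loci on the strand opposite to an annotated gene were called higher. The table names 364 such loci, their strand being inferred from the numbering of the loci, and 307 passed the level filter. Of these, 198 passed only through the digested libraries, so the count of 296 called higher is partly fixed by the filter. Among the 61 with at least 1 FPKM in all 4 libraries, 57 were higher, with a median of 4.29. A partner locus of the same name on the gene's strand was also tested for 251 of them, and some partners are counted in more than 1 pair. The values of these 251 pairs are descriptions, since the filter partly fixed the direction of the opposite-strand loci, and nothing is read from them about the strand. The opposite-strand loci had a median log2 fold change of 3.005 and their partners -0.80. In 202 pairs the opposite-strand locus was higher and its partner lower, in 10 both were higher, and in 6 the partner had the larger fold change. Both loci had at least 1 FPKM in all 4 libraries in 38 pairs, of which 29 had a higher opposite-strand locus and a lower partner, with medians of 4.37 and -0.83. The median level of opposite-strand loci was 12.9 FPKM with RNase R, against 0.611 FPKM without, and that of the partners was 1.37 FPKM, against 3.33 FPKM without. They took 1.76% and 2.06% of all FPKM with RNase R, against 0.581% and 0.725% without. Of the 307 opposite-strand loci, 298 are named after a gene with at least 1 annotated intron, and some genes name more than 1 locus. Introns are common in any case, as only 1433 of the 12710 tested protein-coding genes have none.

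**Figure D2:**
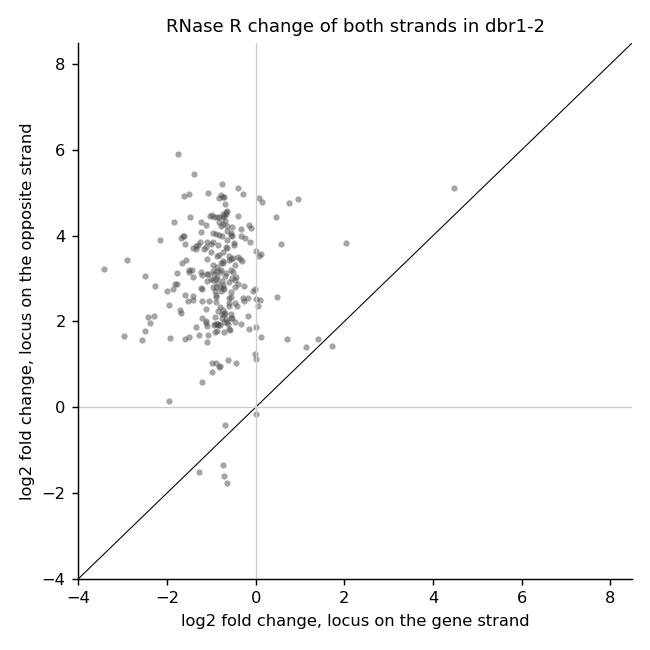
Log2 fold change with RNase R in dbr1-2 of 251 opposite-strand loci (y axis) against that of the locus of the same name on the gene's own strand (x axis). Each point is a pair and the diagonal marks equal change. Most points lie above the diagonal and left of 0, with medians of 3.005 on the y axis and -0.80 on the x axis, and many y values had to be positive because the locus reached 1 FPKM only with RNase R.

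The opposite-strand locus of PPD1 (AT4G14713), named after a regulator of leaf cell proliferation, had 564 and 436 FPKM with RNase R, against 0 and 2.89 FPKM without (log2 fold change 7.98, SE 0.71, limma's adjusted p = 2.19e-05). That of GRF2 (AT1G78300), a 14-3-3 protein gene, had 966 and 330 FPKM with RNase R, against 8.99 and 7.803 FPKM without (5.91, SE 0.40). On its own strand GRF2 had 8.90 and 5.67 FPKM with RNase R, against 26.8 and 25.8 FPKM without (-1.75, limma's adjusted p = 9.28e-05). The strands of GRF2 thus changed in opposite directions. The opposite-strand locus of AT3G51140, a DnaJ-like gene, had 298 and 306 FPKM with RNase R, against 4.71 and 7.20 FPKM without (5.47, SE 0.18). That of AT1G72480, a seven-transmembrane receptor family gene, had 90.1 and 55.3 FPKM with RNase R, against 1.12 and 0.285 FPKM without (5.44), while the gene's own strand had 1.42 and 1.01 FPKM, against 4.71 and 4.82 FPKM (-1.39). Every digested library exceeded every undigested one in these 4 opposite-strand loci.

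Organelle loci moved in both directions and are given by identifier. ATCG00330 had 92086 and 114009 FPKM with RNase R, against 2728 and 2217 FPKM without (log2 fold change 5.38, SE 0.21, limma's adjusted p = 6.85e-07). ATCG00730 had 26257 and 31459 FPKM with RNase R, against 1081 and 1149 FPKM without (4.69). ATCG00700 had 138231 and 240059 FPKM with RNase R, against 7888 and 9011 FPKM without (4.43). These were the 3 largest rises among organelle loci that met the naming rule. ATCG00510 was lower, with 1634 and 733 FPKM with RNase R, against 16856 and 12458 FPKM without (-3.73, SE 0.42, limma's adjusted p = 6.92e-05). ATCG00760 is listed at the same digested values, 1634 and 733 FPKM, so the digested values of both may rest on few reads. No exon length was available for organelle loci, so they could not be held to the limit on exon length. ATMG01080 had 190 and 212 FPKM with RNase R, against 1900 and 1795 FPKM without (-3.20), and ATMG00570 had 0.965 and 1.41 FPKM, against 16.9 and 16.5 FPKM (-3.02). Of 63 mitochondrial loci tested, 7 were higher and 37 lower (58.7%, beside 69.6% of all loci), and after median-ratio scaling 21 were higher and 13 lower. Chloroplast loci together held 42.6% and 49.1% of all FPKM with RNase R, against 46.5% and 46.7% without. Much of that sum was ATCG00220 alone, named for its share, with 29.5% and 29.7% of all FPKM with RNase R, against 19.7% and 12.9% without. Its log2 fold change was 4.34, so the other chloroplast loci together took a smaller share after digestion.

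Protein-coding genes without structured RNA in their interval included some rises of comparable size. AT1G49700, of unknown function (chr1:18388792-18390523), had 110 and 129 FPKM with RNase R, against 2.81 and 2.72 FPKM without (log2 fold change 4.99, SE 0.10, limma's adjusted p = 1.57e-07). AT5G64160 (chr5:25670930-25672710, 3 introns) had 247 and 262 FPKM with RNase R, against 7.76 and 7.85 FPKM without (4.86, SE 0.11). VCL1 (AT2G38020), needed for vacuole formation, had 249 and 212 FPKM with RNase R, against 8.65 and 6.33 FPKM without (4.78, SE 0.17). ADF11 (AT1G01750, chr1:275188-276310, 2 introns), an actin depolymerizing factor, had 79.1 and 85.8 FPKM with RNase R, against 2.29 and 2.65 FPKM without (4.59, SE 0.10, limma's adjusted p = 1.73e-07). The replicates of these 4 genes differed by far less than the groups. AT5G64160, VCL1 and ADF11 share their interval with another locus of the table, so their reads may be divided between loci. ALY4 (AT5G37720), an mRNA export factor gene known as the host of a lariat-derived circular RNA, had 33.9 and 40.1 FPKM with RNase R, against 2.53 and 2.67 FPKM without (3.39, SE 0.11, limma's adjusted p = 3.82e-07). The intervals of ALY4, RS40, AT3G20430, PER64, AT1G11880, AT2G31141, AT2G05760 and TAS1C, described here or elsewhere, are also shared with another locus.

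**Figure D3:**
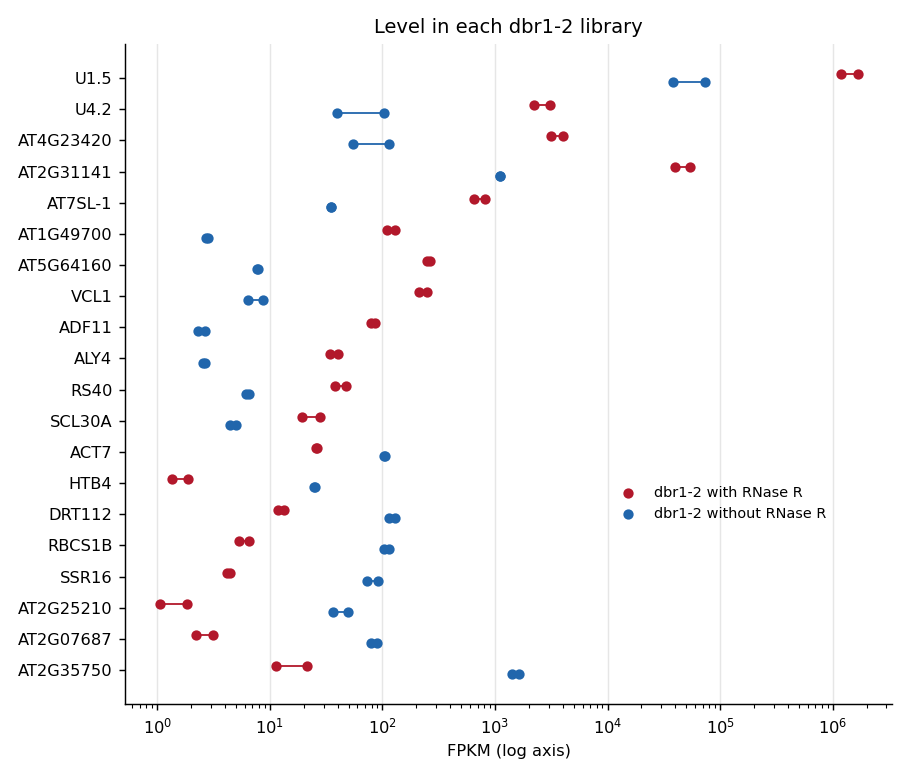
FPKM (x axis, log scale) of 20 named loci (y axis) in each dbr1-2 library. Points are the 2 libraries of a group, joined by a line, with digested and undigested libraries in different colours. U1.5 sits at 1184010 to 1664320 FPKM with RNase R, against 38171 to 73178 FPKM without, while AT2G35750, the lowest row, sits at 11.4 to 21.5 FPKM with RNase R, against 1427 to 1635 FPKM without.

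The last 60 bases of the longest intron, where branchpoints usually lie, are shown for 4 of the 5 protein-coding genes whose change in dbr1-2 most exceeded that in Col-0. Capitals mark the last CTNAC, the letters of the plant branchpoint consensus, where present, and the final AG of the intron. They are ADF11 (chr1:275572-275631, intron of 101 nt), AT5G64160 (chr5:25671811-25671870, 307 nt), AT4G04200 (chr4:2028468-2028527, 713 nt) and AT3G20430 (chr3:7122447-7122506, 532 nt), all on the plus strand in TAIR10.1.
ADF11: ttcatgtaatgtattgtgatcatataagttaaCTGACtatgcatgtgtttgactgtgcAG
AT5G64160: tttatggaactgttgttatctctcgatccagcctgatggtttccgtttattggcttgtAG
AT4G04200: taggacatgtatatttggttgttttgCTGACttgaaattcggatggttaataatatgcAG
AT3G20430: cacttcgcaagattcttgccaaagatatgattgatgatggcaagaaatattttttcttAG
CTNAC was found in ADF11 and AT4G04200 and not in the windows of the other 2. On the intron's strand, it occurred in this window in 1807 of 11188 tested protein-coding genes with introns (16.2%). Among genes higher with RNase R it occurred in 262 of 1481 (17.7%), and among genes whose change was more positive in dbr1-2 than in Col-0 in 215 of 1219 (17.6%). These shares lie close to that of all genes, and gene-level FPKM do not show whether an intron's own reads changed.

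The share of protein-coding genes called higher went with the length of the longest intron. It was 7.19% of 1433 genes without introns and 7.43% of 2248 genes whose longest intron was at most 150 nt. It was 10.5% of 3240 genes above that and up to 300 nt, 17.6% of 4387 up to 600 nt, 15.9% of 1114 up to 1000 nt and 18.4% of 288 above 1000 nt. The background was 12.7% over protein-coding genes and 15.5% over all tested loci. Genes with a longest intron above 300 nt were called higher at 17.3%, against 8.80% of those with shorter ones or none. These shares were 34.9% and 22.5% after median-ratio scaling, and 9.47% and 4.78% with equal sums over protein-coding genes. By the number of introns, the share was 8.31% with 1 intron and between 14.1% and 14.4% in the classes with 2 or more. Because exon length also went with the change, with a median log2 fold change of -1.34 up to 600 nt of exon and -0.58 above 3000 nt, the shares were recounted in 3335 genes of more than 1000 and up to 2000 nt of exon and 2 to 10 FPKM without RNase R. There they were 3.41%, 3.99%, 9.25%, 14.2%, 10.6% and 17.1% from no intron to the longest class, which held 70 genes. Whether reads from introns contribute was not tested.

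**Figure D4:**
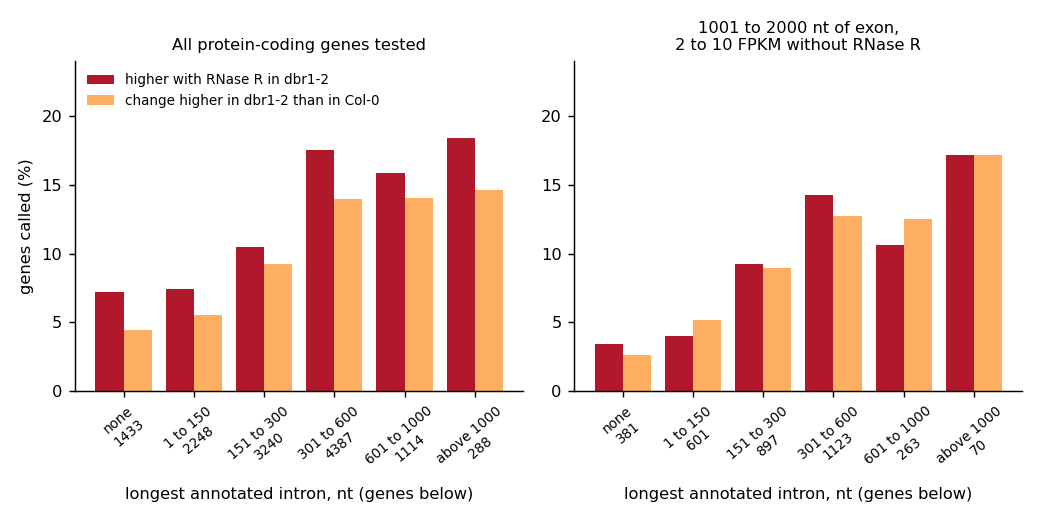
Share of protein-coding genes (y axis, %) called higher with RNase R in dbr1-2, and share whose change was higher in dbr1-2 than in Col-0, by longest annotated intron (x axis, nt, with the number of genes). The left panel holds all tested genes and the right panel genes of more than 1000 and up to 2000 nt of exon and 2 to 10 FPKM without RNase R. In the left panel the first share is 7.19% without introns and 17.6% above 300 and up to 600 nt, and the second is 4.47% and 14.0%.

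The 10 largest falls among protein-coding genes included ribosomal protein genes, a copy of a mitochondrial gene and a gene that contains snoRNAs. AT2G35750, an uncharacterized gene whose interval contains the snoRNA genes AT2G35747 and AT2G08770, had 11.4 and 21.5 FPKM with RNase R, against 1635 and 1427 FPKM without (log2 fold change -6.52, SE 0.24, limma's adjusted p = 5.57e-07). AT2G07687, a cytochrome c oxidase subunit III gene in the copy of mitochondrial DNA on chromosome 2, had 2.21 and 3.13 FPKM with RNase R, against 89.0 and 79.5 FPKM without (-4.55, SE 0.13). Reads may be divided between that gene and the mitochondrial copy, so its level is uncertain. AT2G05760, a xanthine/uracil permease family gene, had 3.93 and 4.35 FPKM with RNase R, against 102 and 128 FPKM without (-4.49, SE 0.18).

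Ribosomal protein genes made up 5 of the 10 largest falls and SSR16, a plastid ribosomal protein gene, was another. AT2G25210, an L39 gene, had 1.85 and 1.06 FPKM with RNase R, against 49.5 and 36.3 FPKM without (-4.17, SE 0.19, limma's adjusted p = 1.17e-06). AT3G44010, an S14p/S29e gene, had 3.795 and 2.86 FPKM with RNase R, against 77.7 and 66.9 FPKM without (-4.09). SSR16 (AT4G34620) had 4.196 and 4.40 FPKM with RNase R, against 90.8 and 73.6 FPKM without (-3.97). The other 3, AT4G31985, AT3G11120 and AT1G52300, had log2 fold changes of -4.05, -4.05 and -4.002, with digested levels of 1.27 to 3.58 FPKM, against 42.9 to 73.0 FPKM without. Of 285 tested genes whose product names a ribosomal protein, 263 were lower (92.3%, beside 69.6% of all loci) and 8 higher. Their median log2 fold change was -1.52, against -0.71 over all loci. After median-ratio scaling 186 were lower and 33 higher. These genes are short, with a median of 1033 nt of exon against 1822 nt over protein-coding genes.

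Core histone genes, which encode the proteins that package DNA, also fell. Of 22 tested, 21 were lower (95.5%, beside 69.6% of all loci) and 0 higher, with a median of -1.61. After median-ratio scaling 16 were lower and 0 higher. The 1 gene not called also had a negative fold change. HTB4 (AT5G59910), a histone H2B gene, had 1.89 and 1.35 FPKM with RNase R, against 24.5 and 25.0 FPKM without (-3.30, SE 0.11, limma's adjusted p = 4.14e-07).

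Nuclear photosynthesis genes fell in the deposited values, with 21 of 23 lower (91.3%, beside 69.6% of all loci), 1 higher and a median of -0.93. After median-ratio scaling 9 were lower and 9 higher, so their direction as a group depended on the scaling. RBCS1B (AT5G38430), a Rubisco small subunit gene, had 6.54 and 5.34 FPKM with RNase R, against 104 and 114 FPKM without (-3.99, SE 0.15). DRT112 (AT1G20340), a plastocyanin gene, had 13.4 and 11.8 FPKM with RNase R, against 129 and 113 FPKM without (-3.17, SE 0.12). RCA (AT2G39730), encoding Rubisco activase, was still at 73.6 and 69.7 FPKM with RNase R, against 283 and 297 FPKM without (-2.001, SE 0.09).

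Genes of flower development and pollen followed the bulk of protein-coding genes. Of 18 tested floral identity and meristem genes 13 were lower (72.2%, beside 69.6% of all loci) and 2 higher (11.1%, beside 15.5%). Their median was -0.90, and after median-ratio scaling 8 were lower and 5 higher. SEP3 (AT1G24260), a floral organ identity gene known to give an exonic circular RNA, had 3.73 and 3.28 FPKM with RNase R, against 11.8 and 11.4 FPKM without (-1.49, SE 0.11). Of 15 tested pollen, tapetum and pollen coat genes 10 were lower (66.7%) and 3 higher (20%), with a median of -0.88. GRP19 (AT5G07550), a pollen coat oleosin gene, had 17.2 and 14.98 FPKM with RNase R, against 92.0 and 96.5 FPKM without (-2.48, SE 0.09). Of 18 housekeeping genes 15 were lower (83.3%) and 1 higher (5.56%), with a median of -0.87. After median-ratio scaling 8 were lower and 5 higher. ACT7 (AT5G09810), a vegetative actin, had 25.7 and 26.2 FPKM with RNase R, against 106 and 102 FPKM without (-1.96, SE 0.08).

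Genes of RNA decay and of small RNA pathways were called lower at shares of 80% and 58.8%, beside 69.6% of all loci. Of 20 genes of decay and surveillance 16 were lower and 1 higher, with a median of -0.73. DCP1 (AT1G08370), a decapping activator, had 1.34 and 1.12 FPKM with RNase R, against 4.37 and 4.53 FPKM without (-1.29, SE 0.10, limma's adjusted p = 1.25e-05). After median-ratio scaling the list gave 8 lower and 5 higher. Of 17 tested small RNA genes 10 were lower and 0 higher, with a median of -0.47, and after that scaling 3 were lower and 8 higher. AGO10 (AT5G43810), an Argonaute of the shoot meristem, had 2.62 and 2.41 FPKM with RNase R, against 6.61 and 6.87 FPKM without (-1.14).

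SR proteins, which bind exons and help to choose splice sites, had a median change near 0, while that of all loci was -0.71. Of 18 tested SR genes 6 were higher (33.3%, beside 15.5% of all loci) and 5 lower (27.8%, beside 69.6%). Their median log2 fold change was -0.04, and after median-ratio scaling 14 were higher and 0 lower. RS40 (AT4G25500) had 37.7 and 47.5 FPKM with RNase R, against 6.52 and 6.17 FPKM without (2.56, SE 0.12, limma's adjusted p = 1.36e-06). SCL30A (AT3G13570) had 28.1 and 19.4 FPKM with RNase R, against 4.38 and 5.04 FPKM without (2.09, SE 0.16). SR34a (AT3G49430) rose less, with 8.77 and 7.45 FPKM against 4.42 and 4.75 FPKM without (0.70, SE 0.10). SR30 (AT1G09140) was lower, with 3.42 and 3.20 FPKM with RNase R, against 6.18 and 6.28 FPKM without (-0.75, SE 0.12), and its log2 fold change was 0.03 after median-ratio scaling. The longest introns of RS40 and SCL30A are 485 and 725 nt.

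Of 5 genes of branchpoint and 3′ splice site recognition 2 were lower (40%, beside 69.6% of all loci) and 0 higher, and after median-ratio scaling 4 were higher. ATU2AF65A (AT4G36690), the large U2AF subunit that binds the polypyrimidine tract, had 7.70 and 5.86 FPKM with RNase R, against 7.81 and 7.59 FPKM without. Its change of -0.17 did not pass the test (SE 0.13, limma's adjusted p = 0.241), and it was 0.66 after median-ratio scaling and 0.26 under quantile normalization. Of 5 tested genes of lariat debranching and spliceosome disassembly 3 were lower (60%, beside 69.6% of all loci) and 0 higher, with a median of -0.34. After median-ratio scaling 3 were higher and 2 lower, with a median of 0.39.

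The change in dbr1-2 was then set against that in Col-0 by testing the difference itself. Of 13743 loci 1980 differed (14.4%), 1544 with a more positive change in dbr1-2 (11.2%) and 436 with a more negative one (3.17%). RNase R raised 2136 loci in dbr1-2 and 1142 (8.31%) in Col-0, and lowered 9570 in dbr1-2 and 9789 (71.2%) in Col-0. The 986 loci raised in both were 46.2% of the dbr1-2 loci and 86.3% of the Col-0 loci. The 8731 loci lowered in both were 91.2% of those in dbr1-2 and 89.2% of those in Col-0. A further 294 loci were higher in dbr1-2 and lower in Col-0, and 12 the reverse. The 13743 loci were chosen by their levels in dbr1-2 alone. Loci at 1 FPKM only in Col-0 libraries could not enter, so the choice could tilt these counts towards changes in dbr1-2. With at least 1 FPKM in 2 of all 8 libraries, 1973 of 14351 loci differed, 1544 of them positive and 429 negative. There RNase R raised 2159 loci in dbr1-2 and 1187 in Col-0. Leaving out a single undigested library left 873 to 997 loci that differed, whichever of the 4 was dropped, and the tag year as a covariate left 700 (633 positive, 67 negative).

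ADF11 had one of the largest positive differences. It had 79.1 and 85.8 FPKM with RNase R in dbr1-2, against 2.29 and 2.65 FPKM without, while in Col-0 it had 1.24 and 1.01 FPKM with RNase R, against 0.295 and 0.266 FPKM without. The difference of the log2 fold changes was 3.86 (SE 0.15, limma's adjusted p = 4.63e-05). AT5G64160 had 10.5 and 13.2 FPKM in digested Col-0, against 3.54 and 3.32 FPKM without, a difference of 3.33 (SE 0.16, limma's adjusted p = 6.61e-05). In both genes the rise was present in each genotype and larger in dbr1-2. AT4G04200, a signal peptidase subunit gene, had 38.4 and 21.2 FPKM with RNase R in dbr1-2, against 3.09 and 1.96 FPKM without. In Col-0 it had 1.70 and 2.06 FPKM with RNase R, against 2.66 and 2.33 FPKM without, a difference of 3.37 (SE 0.37, limma's adjusted p = 0.00116). Only in dbr1-2 did its digested libraries lie above the undigested ones. ALY4 had 3.10 and 3.39 FPKM in digested Col-0, against 1.69 and 1.67 FPKM without, a difference of 2.73 (SE 0.15, limma's adjusted p = 1.33e-04).

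**Figure D5:**
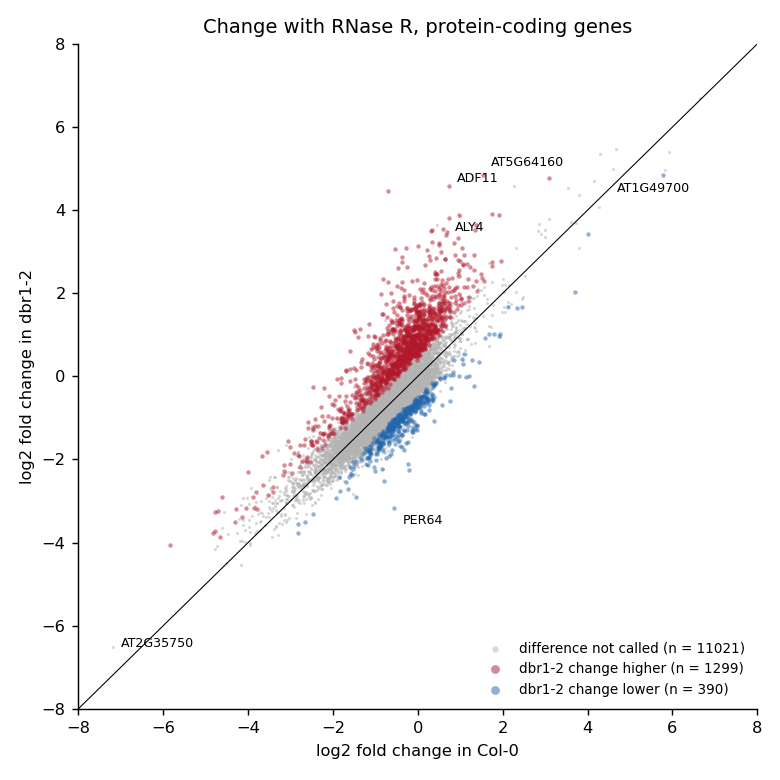
Log2 fold change with RNase R of protein-coding genes in dbr1-2 (y axis) against Col-0 (x axis). Points are genes, coloured by the test of the difference, and the diagonal marks equal change. ADF11, AT5G64160 and ALY4 lie above the diagonal by 3.86, 3.33 and 2.73, PER64 lies below it by a difference of -2.61, and AT1G49700 and AT2G35750 lie near it.

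AT4G03360 and AT3G20430 had large positive differences with wider errors, and their calls were lost under some settings. AT4G03360, a ubiquitin family gene, has an interval with 7SL sequence (91.3% identity) that is shared with an opposite-strand locus. It had 23340 and 27141 FPKM with RNase R in dbr1-2, against 934 and 1376 FPKM without, while in Col-0 it had 111 and 111 FPKM with RNase R, against 87.5 and 371 FPKM without (difference 5.17, SE 0.78, limma's adjusted p = 0.00441). The opposite-strand locus of the same name had 61613 and 68108 FPKM with RNase R in dbr1-2, against 1806 and 1927 FPKM without, and the difference of its change from that in Col-0 did not pass the test ( -0.60, limma's adjusted p = 0.162). AT3G20430, a gene similar to an RNA export adapter, had 22.5 and 6.28 FPKM with RNase R in dbr1-2, against 0.846 and 0.343 FPKM without, and 0 to 0.669 FPKM in Col-0 (difference 3.58, SE 0.65, limma's adjusted p = 0.00953). Because AT3G20430 reached 1 FPKM only in the digested dbr1-2 libraries, its rise there was fixed by the filter on level. Its call was lost without Col-0 without RNase R replicate 1 (3.51, limma's adjusted p = 0.0508) and with the tag year as a covariate (3.28, limma's adjusted p = 0.0878), and that of AT4G03360 under quantile normalization (2.50, limma's adjusted p = 0.11).

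Splicing factor genes were among those with a positive difference. SCL30A had 7.09 and 6.51 FPKM in digested Col-0, against 6.10 and 6.33 FPKM without, so that its rise in dbr1-2 exceeded the Col-0 change by 1.98 (SE 0.23, limma's adjusted p = 0.00137). RS40 had 26.3 and 23.4 FPKM in digested Col-0, against 9.39 and 9.29 FPKM without (difference 1.24, SE 0.17). ATU2AF65A had 1.56 and 1.86 FPKM in digested Col-0, against 8.91 and 8.23 FPKM without (difference 1.65, SE 0.18, limma's adjusted p = 0.00120). In dbr1-2 it stayed near its undigested level, as given above, and in Col-0 it fell. Of the 18 SR genes 5 had a positive and 1 a negative difference, and of 285 ribosomal protein genes 32 had a positive one (11.2%, the share over all loci).

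The 5 negative differences named by the rule were smaller in size than the 5 positive ones. PER64 (AT5G42180), a peroxidase of the root Casparian strip, had 1.64 and 0.687 FPKM with RNase R in dbr1-2, against 18.6 and 17.3 FPKM without, while in Col-0 it had 0 and 0.112 FPKM with RNase R, against 0.659 and 0.448 FPKM without (difference -2.61, SE 0.28, limma's adjusted p = 0.00109). The undigested level of PER64 was higher in dbr1-2 than in Col-0. In RNA of whole inflorescences, more cells of a type and more RNA per cell cannot be told apart. Its Col-0 values were all below 1 FPKM, where the log2(FPKM + 1) scale understates changes. With a pseudocount of 0.01 the difference of PER64 was -0.08 (limma's adjusted p = 0.98), and that of RAB18 (AT5G66400), a dehydrin gene, was -0.11, against -1.04 with a pseudocount of 1. PSBX (AT2G06520), a photosystem II subunit gene, had 28.5 and 20.1 FPKM with RNase R in dbr1-2, against 115 and 124 FPKM without, and in Col-0 45.0 and 45.8 FPKM with RNase R, against 86.2 and 97.8 FPKM without (difference -1.27, SE 0.22). GRP20 (AT5G07560), a pollen coat oleosin gene, differed by -1.15, and AT3G63052, of unknown function, by -1.71. Both were lower with RNase R in each genotype, and the call of GRP20 was lost without dbr1-2 without RNase R replicate 2 (-1.07, limma's adjusted p = 0.0573). With the tag year as a covariate the calls of PSBX, GRP20 and AT3G63052 were lost (limma's adjusted p = 0.0713, 0.0817 and 0.0661).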

How the data were processed

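Deposited values were FPKM per locus in 4 dbr1-2 and 4 Col-0 libraries of rRNA-depleted RNA, with 2 libraries per group. Per the submitters' processing notes, the authors used TopHat2 2.0.13, Cufflinks 2.2.1 and Cuffnorm 2.2.1 with TAIR10. Total read counts are not given in the sources used here, and the depth per locus was judged from the steps between low FPKM values. Loci that reached 1 FPKM in fewer than 2 of the 4 dbr1-2 libraries were left out.

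log2(FPKM + 1) was fitted with limma 3.58.1 in R 4.3.3 over all 8 libraries (4 residual degrees of freedom, empirical Bayes with trend, Benjamini-Hochberg adjusted p under 0.05, two-sided). The contrasts were with minus without RNase R in dbr1-2, and that change minus the one in Col-0. The fit was tested on simulated data. Structured RNA sequence was searched with blastn 2.17.0. Strand was inferred from the order of locus numbers, which matched the annotated strand for 99.9% of uniquely named loci. The members and gene lists were chosen with earlier results of these data known.

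Genes named are, among loci past the threshold with a mean of at least 5 FPKM in dbr1-2, at least 300 nt of exon, 1 gene name and no overlap between groups, the 10 largest rises and falls of nuclear protein-coding genes, the 5 of other nuclear loci (any exon length), the 3 of organelle loci, up to 4 members per list by smallest p, and the 5 largest positive and negative differences from Col-0. Organelle loci had no exon length and could not be held to that limit. DBR1 was added, and the text describes a subset. Alternatives were other pseudocounts, filters, scalings, a replicate block, the tag year, a minimum fold change and each library left out.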

Additional observations from a re-analysis of the deposited data

Results flagged for a closer look

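The change with RNase R differed between dbr1-2 and Col-0, by the test of the difference itself, at 1980 of 13743 loci, and the following named loci were among them. Differences are the log2 fold change in dbr1-2 minus that in Col-0. More positive changes in dbr1-2 were found for AT4G03360 (5.17), ADF11 (3.86), the opposite-strand locus of PPD1 (3.74), AT3G20430 (3.58), AT4G04200 (3.37), AT5G64160 (3.33), ALY4 (2.73), SCL30A (1.98), AT3G11120 (1.79), VCL1 (1.69), ATU2AF65A (1.65), RS40 (1.24), ATMG01080 (1.10), RPL23AA (1.05) and DRT112 (0.69). More negative changes were found for PER64 (-2.61), ATCG00510 (-2.19), AT3G63052 (-1.71), PSBX (-1.27), GRP20 (-1.15), RAB18 (-1.04), BXL3 (-0.92), HTB4 (-0.84) and ACT2 (-0.54). The differences of DRT112, ACT2, HTB4, BXL3, ATCG00510 and PPD1 each lost their call when single libraries, both digested and undigested, were left out, except that for HTB4 only undigested ones did so. That of AT3G11120 lost it without Col-0 without RNase R replicate 1 (1.59, limma adjusted p = 0.051). With the tag year as a covariate the difference lost its call for PPD1 (3.91, limma adjusted p = 0.175), AT3G20430 (3.28, 0.0878), AT3G11120 (1.46, 0.0856), RPL23AA (0.95, 0.0556), DRT112 (0.55, 0.217), ATCG00510 (-2.75, 0.0766), AT3G63052 (-1.50, 0.0661), PSBX (-1.12, 0.0713), GRP20 (-0.88, 0.0817), HTB4 (-0.82, 0.0861), BXL3 (-0.61, 0.131) and ACT2 (-0.46, 0.173), each value being the difference and its adjusted p.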

How the results depend on the processing

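The number of loci changed by RNase R in dbr1-2 was 11706. It was 3225 (896 higher, 2329 lower) with a mean of at least 5 FPKM, 6346 (1471 and 4875) with at least 1 FPKM in all 4 libraries, and 2892 (725 and 2167) with a minimum log2 fold change of 1. The first 2 settings test fewer loci. Leaving out each dbr1-2 library gave 10706 to 11684, with 10773 (1852 and 8921) when undigested replicate 2 was left out and the dbr1-2 comparison lay within 1 tag year. The number of loci whose change differed from Col-0 was 1980, and it was 977 (780 positive, 197 negative) at a mean of at least 5 FPKM, 700 with the tag year as a covariate, 97 (94 and 3) with the minimum fold change, and 873 to 2745 with each library left out. Quantile normalization gave 2475, with 1302 positive and 1173 negative. Without dbr1-2 with RNase R replicate 1 it gave 2497 (1582 and 915). The cause was not tested where no loci or samples were removed.

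A replicate block gave 11686 and 1862 loci. Deviations from group means of same-numbered libraries correlated across loci at 0.108 in dbr1-2 and 0.005 in Col-0, with 2 pairs each. With so few libraries this does not show whether same-numbered libraries share an origin, which the labels do not state. The RNase R change reversed for SR30 after median-ratio scaling (0.032) and for ATU2AF65A after median-ratio scaling (0.66) and quantile normalization (0.26). For 74 named loci, 1478 of 1496 alternative values of the change kept direction and call. Of 567 values of the difference for 24 loci, 470 kept both and 97 lost the call. Alternatives chosen after seeing the data gave 11701 and 1984 loci without those listed at 0 in 1 library and at 50 FPKM or more in another, and 10843 and 1682 among protein-coding genes only. With 2 libraries per group the spread is estimated from few values, and fewer reads stand behind each FPKM after digestion.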
